A study of Mus musculus with 16 samples.

Results

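Adrenomedullin (Adm), its receptor Calcrl and the receptor's partner Ramp2 were measured in lymphatic endothelial cells sorted from mouse hearts. The genes were found by their symbols among the 15895 genes of the expression table; 3 of the 4 symbols sought were listed, and Ramp3 is not analysed here. RNA sequencing covered 4 groups of CD1 mice with 4 libraries each, and hearts were taken 3 days after surgery: myocardial infarction (MI) at postnatal day 56 (MI P56), sham surgery at day 56 (sham P56), MI at day 1 (MI P1) and sham surgery at day 1 (sham P1). Adult MI was a permanent ligation of the left anterior descending coronary artery in 8-week-old males. Cells of all groups were sorted as CD45-negative, CD31-positive and podoplanin-positive. Neonatal libraries came from pools of 6 ventricles, minced and digested under stirring, and the digestion of adult hearts was briefer and done by perfusion, so age cannot be told apart from digestion, pooling and sex. The labels do not say which animals or pools stand behind the libraries of a group, so p-values measure only the spread between these libraries.

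Adrenomedullin is a small secreted peptide that widens vessels and tightens endothelial barriers. It binds a receptor made of Calcrl, a receptor with membrane-spanning helices that signals through Gs and cyclic AMP, and a RAMP, a single-pass partner that carries Calcrl to the cell surface and sets which peptide it prefers. With Ramp2 or Ramp3, Calcrl is an adrenomedullin receptor; with Ramp1 it is the receptor for calcitonin gene-related peptide. Mouse embryos that lack Adm, Calcrl or Ramp2 develop oedema with poorly formed lymphatics. Adm is also a classic target of the hypoxia-inducible factors.

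The sequences just before the start of Adm and of Calcrl are shown because Adm is a target of the hypoxia-inducible factors and the receptor signals through cyclic AMP. Genes of both pathways were read beside the 3 genes. They come from RefSeq promoter windows on GRCm38.p6, printed 5′ to 3′ on the gene's strand and ending just before the RefSeq start of Adm and the GENCODE start of Calcrl. The windows are chr7:110627407-110627656 on the plus strand for Adm and chr2:84425412-84425516 on the minus strand for Calcrl. Capitals mark CACGC, which is the hypoxia response core GCGTG read on the opposite strand.
Adm: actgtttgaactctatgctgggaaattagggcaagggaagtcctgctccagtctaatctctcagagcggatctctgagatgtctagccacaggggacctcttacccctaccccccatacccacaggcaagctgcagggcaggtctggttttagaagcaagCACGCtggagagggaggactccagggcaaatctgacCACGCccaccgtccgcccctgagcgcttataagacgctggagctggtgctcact
Calcrl: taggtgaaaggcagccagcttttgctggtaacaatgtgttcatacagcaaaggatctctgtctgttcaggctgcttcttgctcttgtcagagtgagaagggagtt
The search covered both strands for ACGTG, a hypoxia response core, for its variant GCGTG, and for TGACG, the core of the cyclic AMP response element. No match overlapped another. The 250 bases of Adm held 2 matches to GCGTG, at -90 to -86 and -54 to -50 from the window's end, with 0 matches to ACGTG and likewise 0 matches to the cyclic AMP core TGACG. Among 27025 promoter windows cut to 250 bases, 28.2% held GCGTG, 16.6% held ACGTG and 17.9% held TGACG. The 105 bases of Calcrl held 0 matches. They are the part of its RefSeq window farthest from the RefSeq start, and the rest, which lies within the GENCODE gene, was not searched. All windows were cut likewise to their first 105 bases, farthest from the RefSeq start. Of these, 11.4% held the variant GCGTG, 6.41% the hypoxia core ACGTG and 5.53% the cyclic AMP core TGACG. A match is a string of letters and not a binding site.

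On GRCm38, with the GENCODE M21 annotation, Adm lies at chr7:110627661-110629820 on the plus strand, with 1619 exon bases. The antisense gene Gm28863 spans it and shares 0 exon bases with it. Calcrl lies at chr2:84330626-84425411 on the minus strand, with 4882 exon bases. Ramp2 lies at chr11:101246028-101259546 on the plus strand; of its 3301 exon bases, 1103 are also exon of Vps25 through a read-through transcript, so the counts of Ramp2 are uncertain there. The strand setting of the counting is not given in the sources used here.

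Values are in the deposited unit, CPM (reads scaled to library size) adjusted by trimmed mean of M-values (TMM), in which 1 read was worth 0.0163 to 0.0362 in 13 of the libraries. Those 13 libraries had a read on 14121 to 15821 genes. The other 3 had a read on 7746 (MI P56 library 5), 9451 (sham P1 library 1) and 7939 genes (sham P1 library 2), and Uqcrc1 alone took 99.8%, 18.1% and 98.6% of their reads. Uqcrc1 also took 47.3% of the reads of sham P1 library 5, which had a read on 15549 genes and was kept. In the rest of the 13 libraries it took 0.0930% to 4.11%. Comparisons below use the 13 libraries (3 MI P56, 4 sham P56, 4 MI P1 and 2 sham P1), and values with all 16 are given beside the results for the 3 genes and beside calls that were lost. Library numbers are those of the table columns, which run 1, 2, 3 and 5. The lymphatic identity of the sort was read from 6 listed markers. Their values summed to 979 to 2344 in MI P56, 1735 to 3065 in sham P56, 1563 to 2554 in MI P1 and 2019 to 2952 in sham P1. Prox1, the regulator of lymphatic fate, had values of 139 to 516 in the 13 libraries, whereas Ptprc, which encodes CD45, had 0.0997 to 5.31. RNA of other cells was also present, in every group: 7 fibroblast genes summed to 2971 to 6249 in MI P56, 610 to 2772 in sham P56, 1469 to 4305 in MI P1 and 2571 to 5362 in sham P1, and 7 cardiomyocyte genes to 317 to 562, 1257 to 2291, 95.2 to 336 and 145 to 218 in the same groups. The fibroblast sums lay wholly above the lymphatic sums in MI P56, and the ranges of the sums overlapped in the other groups. In such bulk libraries, fewer cells of a type and less RNA per cell cannot be told apart.

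Calcrl, the receptor, had higher values at P56 than at P1 within each surgery in the 13 libraries. It had values of 251, 139 and 112 in MI P56 libraries, and 173, 355, 195 and 173 in sham P56 libraries. MI P1 libraries had 96.1, 73.9, 86.1 and 110, and sham P1 libraries had 116 and 96.9. Every P56 library lay above every P1 library of the same surgery, as was the case for 16.3% of all genes in sham and 9.44% after MI, although the lowest MI P56 value was below the higher sham P1 value. The means were 167 ± 73.5 in MI P56, 224 ± 87.8 in sham P56, 91.4 ± 15.2 in MI P1 and 106 ± 13.3 in sham P1 (SD, n = 3, 4, 4 and 2). In that order from the highest, sham P56, MI P56, sham P1 and MI P1, the ranges of neighbouring groups overlapped at each step.

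Ramp2, which carries Calcrl to the surface and makes it an adrenomedullin receptor, overlapped in most pairs of groups. It had 15.6, 25.9 and 11.3 in MI P56 libraries, against 22.8, 18.6, 26.1 and 23.3 in sham P56 libraries. In MI P1 libraries it had 20.6, 15.9, 17.8 and 14.9, against 13.2 and 15.4 in sham P1 libraries. The sham P56 values lay above both sham P1 values, as they did for 16.3% of all genes, and all other pairs of groups overlapped. Group means were 17.6 ± 7.50 in MI P56, 22.7 ± 3.07 in sham P56, 17.3 ± 2.50 in MI P1 and 14.3 ± 1.54 in sham P1 (SD, n = 3, 4, 4 and 2), and no neighbours in their order differed by a test.

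Adm, the ligand, did not separate the groups. Its values were 9.33, 4.18 and 3.06 in MI P56, and 3.52, 13.1, 3.13 and 3.45 in sham P56. They were 3.97, 6.50, 2.77 and 3.64 in MI P1, and 5.21 and 2.97 in sham P1. One MI P56 library and one sham P56 library stood above the rest, and the 4 groups overlapped. The means were 5.52 ± 3.34 in MI P56, 5.79 ± 4.85 in sham P56, 4.22 ± 1.61 in MI P1 and 4.09 ± 1.58 in sham P1 (SD, n = 3, 4, 4 and 2). The value with the fewest reads rested on 82, in sham P1 library 5, with a Poisson interval of 2.36 to 3.69 at 95% that covers counting error only.

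**Figure D1:**
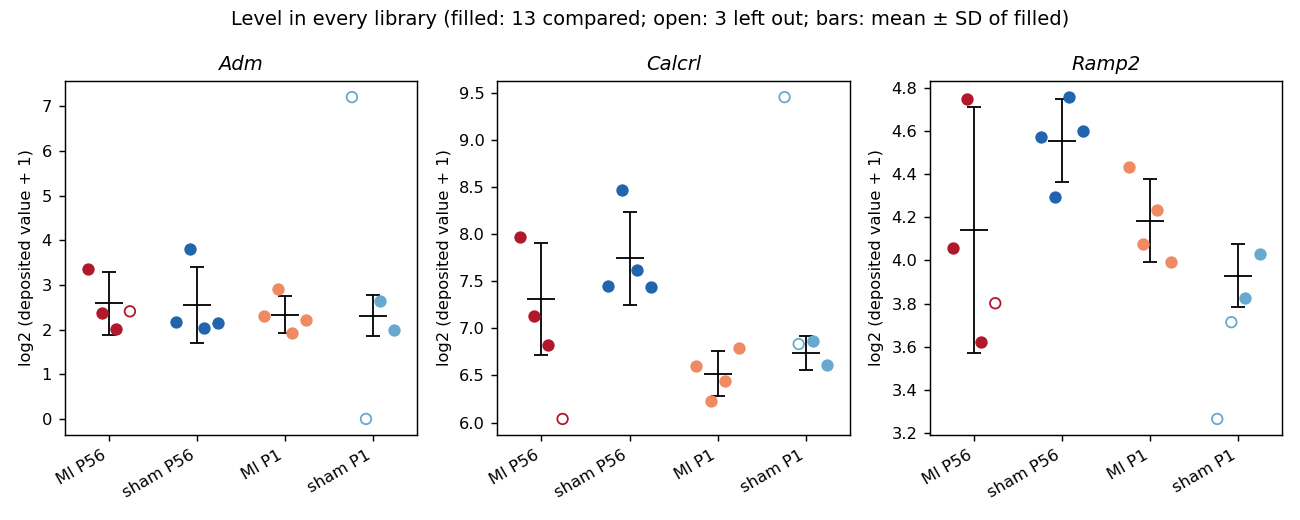
Level of Adm, Calcrl and Ramp2 as log2(deposited value + 1) in each library of MI P56, sham P56, MI P1 and sham P1, with filled points for the 13 libraries compared, open points for the 3 left out, and bars for the mean ± SD of the filled points. The filled P56 points of Calcrl lie above the filled P1 points of the same surgery, and the open point far above the others for Adm and Calcrl is sham P1 library 1, with values of 147 and 703.

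Levels were also read per kilobase of exon, with the bases shared with Vps25 left out of the length of Ramp2. Calcrl then had the highest level, Ramp2 the next and Adm the lowest in each of the 13 libraries. On that scale the group mean of Calcrl was 34.3 in MI P56, 45.9 in sham P56, 18.7 in MI P1 and 21.8 in sham P1. Ramp2 averaged 8.01, 10.3, 7.88 and 6.49 per kilobase in MI P56, sham P56, MI P1 and sham P1. With these lengths, the ratio of Calcrl to Ramp2 per kilobase ran from 2.42 to 7.22 in MI P56, from 3.34 to 8.58 in sham P56, from 2.09 to 3.31 in MI P1 and from 2.84 to 3.95 in sham P1. Each length joins the exons of all annotated transcripts of the gene, which for Ramp2 leaves 2198 bases not shared with Vps25. The whole Ramp2 value was divided by this length, and whether it holds reads of the shared bases is not known here. Sharing of exon bases was checked against a few named genes and not against the whole annotation. The transcripts present in these cells are not known here, and a shorter Ramp2 transcript would lower these ratios. The order of Ramp2 and Adm depends on the length used for Ramp2: over all its exon bases Ramp2 had 4.74 per kilobase in MI P56 library 1 and 5.64 in sham P56 library 2, where Adm had 5.76 and 8.07. Adm averaged 3.41 per kilobase in MI P56, 3.58 in sham P56, 2.61 in MI P1 and 2.53 in sham P1.

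After MI at P56, none of the 3 genes passed the test against sham P56, in a comparison where 3.42% of the 13033 genes tested did, 2.36% as higher and 1.07% as lower. With all 16 libraries 0.174% of genes did, and again none of the 3. MI and sham libraries of each of the 3 genes overlapped, while 8% of all genes lay wholly higher and 5.79% wholly lower after MI. The log2 difference of MI P56 over sham P56 was -0.43 ± 0.28 for Calcrl (SE, limma adjusted p = 0.455) and -0.41 ± 0.26 for Ramp2 (limma adjusted p = 0.435). For Adm it was 0.04 ± 0.44 (SE, limma adjusted p = 0.979), and its 95% interval of -0.88 to 0.96 leaves room for changes of either sign. The interval of Calcrl ran from -1.02 to 0.15, and that of Ramp2 from -0.96 to 0.13. Leaving out 1 library moved Calcrl between -0.77 and -0.19 and Ramp2 between -0.72 and -0.15. The differences with all 16 libraries were -0.75 for Calcrl, -0.50 for Ramp2 and -0.0042 for Adm. The pan-endothelial genes moved in the same comparison: 3 of 6 fell (Cdh5, Tek and Tie1), with a list median of -0.76, and with all 16 libraries 0 of 6 were called, with a median of -0.73. The 6 lymphatic markers had a median of -0.39 in that comparison, with 0 of 6 called. With all 16 libraries their median was -0.45, and again 0 of 6 were called. Differences of Calcrl and Ramp2 relative to the pan-endothelial genes are given after the comparisons of age.

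At P1, 0% of genes, 0 of 13033, were called between MI and sham, and so none of the 3. MI and sham libraries did not overlap, with MI higher, for 8.89% of all genes and, with MI lower, for 7.27%, and for none of the 3 genes. In that comparison 485 genes had an unadjusted p under 0.05 in limma, edgeR's quasi-likelihood test called 0 genes and DESeq2 called 7. The log2 difference of MI P1 over sham P1 was -0.22 ± 0.32 for Calcrl, 0.26 ± 0.29 for Ramp2 and 0.02 ± 0.50 for Adm (SE, limma adjusted p = 1.00 for each). With 2 sham P1 libraries in the fit, the 95% interval was -0.89 to 0.44 for Calcrl, -0.36 to 0.87 for Ramp2 and -1.02 to 1.07 for Adm. Over all 16 libraries the differences were -0.93 for Calcrl, 0.48 for Ramp2 and -0.62 for Adm, none of them called.

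The difference between the MI responses, P56 minus P1, did not pass the test for any of the 3 genes, where 0.483% of all genes did (0.00755% with all 16 libraries). It was -0.67 ± 0.39 for Ramp2 (SE, limma adjusted p = 0.574), whose differences had opposite signs at the 2 ages. It was -0.21 ± 0.42 for Calcrl (SE, limma adjusted p = 0.914) and 0.02 ± 0.66 for Adm (SE, limma adjusted p = 0.997). Fitted on all 16 libraries it was -0.98 for Ramp2, 0.18 for Calcrl and 0.62 for Adm, and with sham P1 library 1 alone put back it was 1.65 for Adm.

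**Figure D2:**
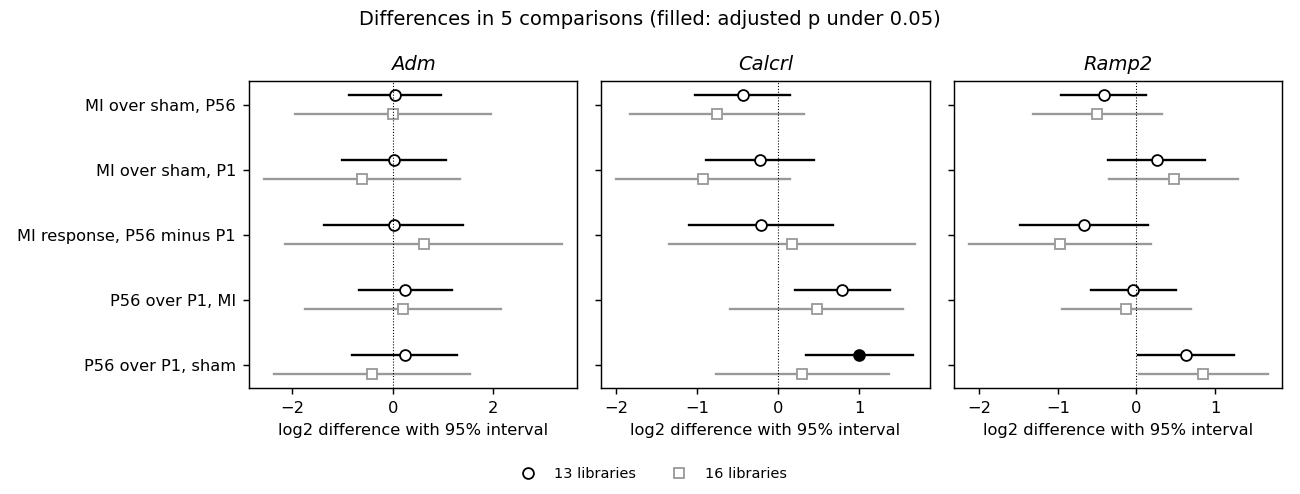
Log2 differences of Adm, Calcrl and Ramp2 with 95% intervals in 5 comparisons, with black circles for the 13 libraries, grey squares for all 16, and filled symbols where the limma adjusted p was under 0.05. The filled symbol is Calcrl in sham P56 over sham P1, at 1.00 with 13 libraries, and its square with 16 libraries lies at 0.30.

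Of the 3 genes, the receptor was the one called between the ages. Calcrl was higher in sham P56 than in sham P1 by 1.00 ± 0.32 on the log2 scale, 2.01-fold (SE, limma adjusted p = 0.0412, 95% interval 0.34 to 1.67). It was the 1 gene of the 3 called there, in a comparison where 13.2% of all genes were called, 5.89% as higher and 7.28% as lower (3.91% called with all 16 libraries). After MI its difference of P56 over P1 was 0.79 ± 0.28 (SE, limma adjusted p = 0.113, unadjusted p = 0.0104, 95% interval 0.21 to 1.38), where 5.35% of all genes were called, 2.09% as higher and 3.26% as lower (0.106% called with all 16 libraries). The difference after MI was 0.48 with all 16 libraries.

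The call for Calcrl rests on few libraries. It was lost in 7 of the 13 fits that leave out 1 library, with an adjusted p of 0.128 without sham P1 library 3, 0.301 without sham P1 library 5, 0.0598 without sham P56 library 2, 0.0566 without sham P56 library 3, 0.0507 without MI P56 library 2, 0.0546 without MI P1 library 1 and 0.0544 without MI P1 library 3. The difference itself stayed between 0.76 and 1.13. With all 16 libraries it was 0.30 ± 0.52 (SE, limma adjusted p = 0.743). With sham P1 library 1 put back alone it was 0.10 (limma adjusted p = 0.910), and that library had a Calcrl value of 703, above every other library.

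Ramp2 differed by 0.63 ± 0.29 between sham P56 and sham P1 (SE, limma adjusted p = 0.176, unadjusted p = 0.0455), and by -0.04 ± 0.26 after MI (SE, limma adjusted p = 0.960). Adm differed by 0.24 ± 0.50 in sham (SE, limma adjusted p = 0.813) and by 0.25 ± 0.44 after MI (SE, limma adjusted p = 0.835). The 95% intervals of Adm were wide, -0.81 to 1.28 in sham and -0.67 to 1.17 after MI. In the fit of all 16 libraries Ramp2 differed by 0.85 in sham and -0.13 after MI, and Adm by -0.41 in sham and 0.21 after MI.

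Each gene was also set against the mean log2 level of 6 pan-endothelial genes (Pecam1, Cdh5, Tie1, Tek, Erg and Egfl7), whose summed values ran from 296 to 668 over the 13 libraries. Relative to them, Calcrl stood at 2.03, 1.48 and 1.49 in MI P56 libraries, against 0.36, 0.27, 0.13 and 0.60 in MI P1 libraries. In sham P56 libraries it stood at 1.09, 2.13, 1.35 and 0.98, against 0.77 and 0.91 in sham P1 libraries. These are the same Calcrl values with a reference subtracted, and P56 lay above P1 within each surgery, in sham narrowly (0.98 against 0.91). The share of all genes that separate on this scale was not computed. The 6 genes differed with age themselves: in MI P56 over MI P1, 2 of 6 were called lower (5.35% of all genes called), with a median of -0.45. In sham P56 over sham P1, 1 of 6 was called higher (13.2% of all genes called), with a median of 0.40. With all 16 libraries 0 of 6 were called, with medians of -0.59 and 0.59. Relative differences hold both shifts, while Calcrl in level differed by 0.79 after MI and 1.00 in sham. The mean relative difference of Calcrl was 1.33 after MI and 0.54 in sham, and 0.94 over both (two-sided exact permutation p = 0.0038, with 525 permutations of age within surgery). Since the ages did not overlap within either surgery, this p is close to 0.0019, the smallest that these permutations can give. With all 16 libraries the relative difference was 0.61 (exact permutation p = 0.170). The mean difference in the level itself, a measure added after the values were seen, was 0.90 over both surgeries, 0.39 with all 16 libraries and 0.45 with 14.

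Relative to the pan-endothelial genes, Ramp2 differed by 0.33 between P56 and P1 (two-sided exact permutation p = 0.0952), and by 0.58 with all 16 libraries (exact permutation p = 0.0135). Adm differed by 0.28 (two-sided exact permutation p = 0.465). Between MI and sham, with labels permuted within age, the relative differences were -0.11 for Calcrl, 0.14 for Ramp2 and 0.25 for Adm (two-sided exact permutation p = 0.608, 0.484 and 0.497). These are 6 tests, and the p-values are unadjusted, although an adjustment over the genes had been planned.

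**Figure D3:**
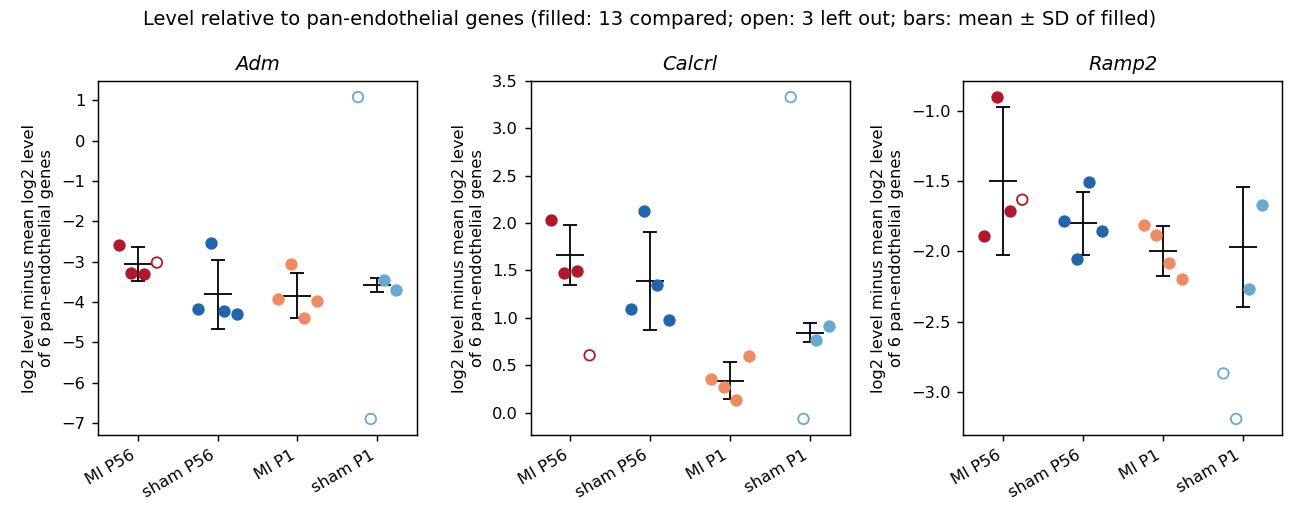
Log2 level of Adm, Calcrl and Ramp2 minus the mean log2 level of 6 pan-endothelial genes in each library of MI P56, sham P56, MI P1 and sham P1, with filled points for the 13 libraries compared, open points for the 3 left out, and bars for the mean ± SD of the filled points. Filled Calcrl points lie between 0.98 and 2.13 at P56 and between 0.13 and 0.91 at P1.

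Markers of other cell types moved with age as well, in comparisons where 13.2% of all genes were called in sham (5.89% higher, 7.28% lower) and 5.35% after MI (2.09% higher, 3.26% lower). In sham P56 over sham P1, 7 of 11 blood endothelial genes rose, with a list median of 1.93, while after MI 0 of 11 were called and the median was 0.11. Their summed value was 243 to 490 in MI P56, 633 to 1026 in sham P56, 284 to 387 in MI P1 and 198 to 241 in sham P1, and each of the 11 was detected in every one of the 13 libraries. All 7 cardiomyocyte genes rose in sham P56 over sham P1 and 1 of 7 rose after MI. In the same sham comparison 3 of 6 pericyte and smooth muscle genes rose and 3 of 7 fibroblast genes fell, with a median of -1.52, while 0 of either list were called after MI. When all 16 libraries were fitted, 3.91% of all genes were called in sham. In that fit 4 of 11 blood endothelial, 6 of 7 cardiomyocyte and 1 of 6 pericyte genes rose in sham, and 2 of 7 fibroblast genes fell. Of the 6 lymphatic markers, 0 were called in either age comparison, with medians of -0.08 in sham and -0.36 after MI. Medians over all genes tested were 0.00 in sham and 0.01 after MI. The part of these markers in the sham difference of Calcrl was not tested.

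Other receptors and binding partners of adrenomedullin were read from a list of 5, of which 3 were listed in the table. Ackr3, an atypical receptor that takes up adrenomedullin in mouse lymphatics, had 44.3 ± 19.5 in MI P56, 54.6 ± 16.7 in sham P56, 19.8 ± 3.50 in MI P1 and 22.6 ± 0.837 in sham P1 (SD, n = 3, 4, 4 and 2). It rose in sham P56 over sham P1 by 1.19 ± 0.32 (SE, limma adjusted p = 0.0184) and in MI P56 over MI P1 by 1.04 ± 0.29 (SE, limma adjusted p = 0.0370). Ackr3 therefore was called in both age comparisons, though with all 16 libraries the adjusted p was 0.0751 in sham and 0.995 after MI. The sham call was lost without sham P1 library 3 or 5 (limma adjusted p = 0.130 and 0.122). The call after MI was lost in 5 of 13 fits, with a limma adjusted p of 0.123 and 0.255 without MI P56 library 1 and 2, and 0.0733, 0.0894 and 0.103 without MI P1 library 2, 3 and 5. Gpr182, an atypical chemokine receptor once proposed to bind adrenomedullin, averaged 14.3 ± 2.81 in MI P56, 28.2 ± 8.61 in sham P56, 9.03 ± 3.78 in MI P1 and 6.95 ± 5.06 in sham P1. It rose in sham P56 over sham P1 by 2.00 ± 0.39 (SE, limma adjusted p = 0.0017), a call that did not hold when sham P1 library 5 was left out (limma adjusted p = 0.111). After MI its difference of P56 over P1 was 0.66 ± 0.34 (SE, limma adjusted p = 0.329). Crcp, a protein that couples Calcrl to its signalling, averaged 3.06 in MI P56, 2.48 in sham P56, 2.09 in MI P1 and 2.10 in sham P1, and was called in none of the 5 comparisons. The related peptides Adm2, Calca, Calcb and Iapp, and the receptors Ramp1 and Calcr, are not analysed here.

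Genes that process or clear the peptide were read next, and 3 are reported. Pam, which amidates the peptide, Mme (neprilysin) and Ide, peptidases that can degrade it, were called in none of the 5 comparisons; Mme differed by 1.40 ± 0.48 in MI P56 over MI P1 (SE, limma adjusted p = 0.102).

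Downstream of the receptor, 26 of 27 listed Gs and cyclic AMP genes were tested. After MI at P56, 0 of 26 were called against sham P56, with a median of 0.01. In sham P56 over sham P1, 1 rose and 2 fell, with a median of -0.12, where 13.2% of all genes were called. Arrb1, a β-arrestin, rose by 0.86 (limma adjusted p = 0.0391), while Pde4d, a cyclic AMP phosphodiesterase, fell by 1.60 (limma adjusted p = 0.0229) and Prkar2b, a regulatory subunit of protein kinase A, fell by 1.53 (limma adjusted p = 0.0234). In MI P56 over MI P1, again 1 rose and 2 fell, with a median of -0.07, where 5.35% of all genes were called. Adcy7, an adenylyl cyclase, rose by 2.17 ± 0.35 (SE, limma adjusted p = 7.6e-04), with 19.2 ± 3.34 in MI P56 against 3.65 ± 1.61 in MI P1. Crem, a cyclic AMP-responsive transcription factor, fell by 1.32 (limma adjusted p = 0.0295) and Pde4b, another phosphodiesterase, fell by 1.17 (limma adjusted p = 0.0163). Of these 6 genes, Adcy7 kept its call with each library left out, and none was called with all 16 libraries.

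Junction genes were included because adrenomedullin raises connexin 43 and tightens lymphatic junctions. Gja1, which encodes connexin 43, fell by 1.03 in sham P56 over sham P1 (limma adjusted p = 0.0399) and by 1.23 in MI P56 over MI P1 (limma adjusted p = 0.0146). Its values ran from 18.2 to 45.2 in MI P56, 27.7 to 53.2 in sham P56, 53.7 to 84.5 in MI P1 and 64.6 to 87.0 in sham P1, so the P56 values lay below the P1 values within each surgery, as they did for 16.7% of all genes in sham and 11.2% after MI. Leaving out 1 library ended the sham call of Gja1 in 6 of 13 fits (limma adjusted p = 0.0926 and 0.0818 without sham P56 library 3 and 5, 0.0527 and 0.0509 without MI P1 library 1 and 2, 0.298 and 0.109 without sham P1 library 3 and 5). It ended the call after MI in 2 of 13 (limma adjusted p = 0.0747 and 0.0899 without MI P56 library 2 and 3). Cdh5, the VE-cadherin of endothelial junctions and also 1 of the 6 pan-endothelial genes, fell in MI P56 over MI P1 by 0.90 (limma adjusted p = 0.0095) and in MI P56 over sham P56 by 0.73 (limma adjusted p = 0.0447), the last call being lost in 10 of the 13 fits that leave out 1 library. The other junction genes reported, Gja4, Tjp1 and Cldn5, were not called in any comparison. None of these calls was made with all 16 libraries.

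Of 14 hypoxia-response genes, 12 were tested, and 2 rose in MI P56 over sham P56, where 3.42% of all genes were called, 2.36% as higher and 1.07% as lower. Ldha, lactate dehydrogenase A, had 51.7 ± 1.76 in MI P56 against 18.1 ± 5.74 in sham P56, a rise of 1.52 ± 0.28 (SE, limma adjusted p = 0.0036, 2.88-fold). Slc2a1, the glucose transporter GLUT1, had 8.29 ± 2.70 in MI P56 against 2.58 ± 1.31 in sham P56, a rise of 1.42 ± 0.37 (SE, limma adjusted p = 0.0367, 2.67-fold). The Slc2a1 call was lost in 6 of 13 fits that leave out 1 library (limma adjusted p = 0.128, 0.130 and 0.0528 without MI P56 library 1, 2 and 3, 0.0586 without sham P56 library 1, 0.0548 and 0.0501 without MI P1 library 1 and 3), whereas that of Ldha was kept in all 13. Adm, itself a hypoxia target, had a difference of 0.04 in the same comparison, and Hif1a, Pgk1 and Vegfa had differences of 0.72, 0.88 and -0.16 that did not pass the test. Macrophage and fibroblast markers also rose there: 2 of 5 and 3 of 7 were called, and their summed values were 16.7 to 86.9 in MI P56 against 6.01 to 9.79 in sham P56 for macrophages, and 2971 to 6249 in MI P56 against 610 to 2772 in sham P56 for fibroblasts. All 7 cardiomyocyte genes fell, with a median of -1.90, and 4 of 11 blood endothelial genes fell, with a median of -1.12. On all 16 libraries, where 0.174% of all genes were called, 1 of 5 macrophage and 2 of 7 fibroblast genes were called higher. In that fit 1 of 7 cardiomyocyte and 0 of 11 blood endothelial genes were called lower. The part of these cells in the rise of Ldha and Slc2a1 was not tested.

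Ldha and Slc2a1 fell in sham P56 over sham P1, by 1.28 (limma adjusted p = 0.0099) and by 1.36 (limma adjusted p = 0.0348), a comparison that shares the sham P56 libraries with the previous one. Of all genes, 13.2% were called in sham P56 over sham P1, 5.89% as higher and 7.28% as lower. In the same age comparison Epas1, which encodes HIF-2α, rose by 1.74 ± 0.35 (SE, limma adjusted p = 0.0022), and Egln1, the prolyl hydroxylase that marks the HIF proteins for decay, rose by 0.90 ± 0.24 (SE, limma adjusted p = 0.0148). Without sham P1 library 3 or 5 the sham calls of Ldha (limma adjusted p = 0.0937 and 0.0816), Slc2a1 (0.0950 and 0.320) and Egln1 (0.119 and 0.106) were lost, and that of Epas1 was kept. After MI, 0 of the 12 were called between the ages. With all 16 libraries 0 of the 12 were called in any of these 3 comparisons.

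**Figure D4:**
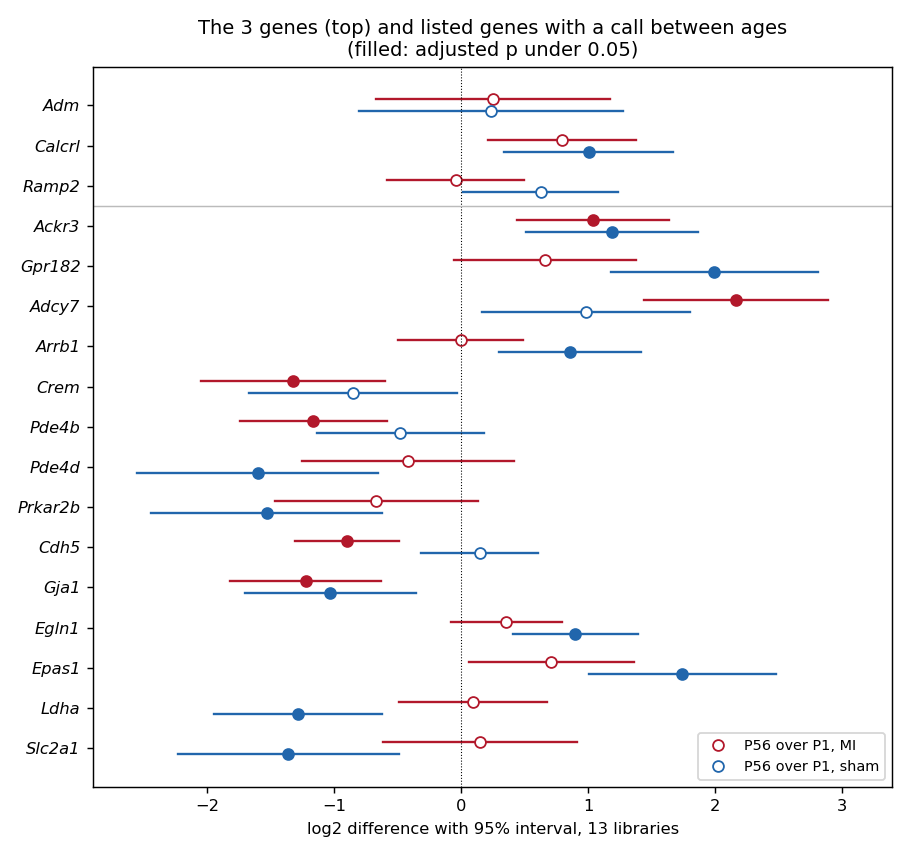
Log2 differences of P56 over P1 with 95% intervals after MI (red) and in sham (blue), for the 3 genes of the receptor system above the line and for each reported pathway gene called in either comparison below it, filled where the limma adjusted p was under 0.05. Calcrl and Ackr3 lie right of 0 in both, and Gja1 lies left of 0 in both.

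The genes whose levels followed each of the 3 most closely over the 13 libraries were named by Pearson's r of log2(value + 1), as a description over libraries that share groups and depth. For Calcrl these were Sgms1 (r = 0.963), Cd46 (r = 0.952) and Fbxl2 (r = 0.952), among 6080 genes compared. Like Calcrl, Sgms1 was highest at P56: it averaged 66.8 in MI P56, 94.8 in sham P56, 36.7 in MI P1 and 42.6 in sham P1. Ramp2 was followed by Tprgl (r = 0.861), Gucy1b3 (r = 0.845), a subunit of the nitric oxide receptor guanylyl cyclase, and Atp2b4 (r = 0.836), a plasma membrane calcium pump. Adm was followed by Magoh (r = 0.898), Ankib1 (r = 0.892) and Oxa1l (r = 0.887), among 6081 genes. By rank (Spearman's rho) these 3 had lower values, 0.753, 0.670 and 0.731. The genes named for Calcrl had 0.912 to 0.934 by rank, and those for Ramp2 0.819 to 0.857.

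Adm and Calcrl had their highest values in the same libraries, and Ramp2 did not. Among the 13 libraries, sham P56 library 2 had the fewest genes with a read, 14121, and the highest values of Adm (13.1) and Calcrl (355), while its Ramp2 value of 18.6 was the lowest of sham P56. Sham P1 library 1, with 9451 genes, had 147 for Adm, 703 for Calcrl and 8.61 for Ramp2. The other two libraries with few genes, MI P56 library 5 and sham P1 library 2, had 1 and 0 reads of Adm. The part of library quality in these values was not tested.

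**Figure D5:**
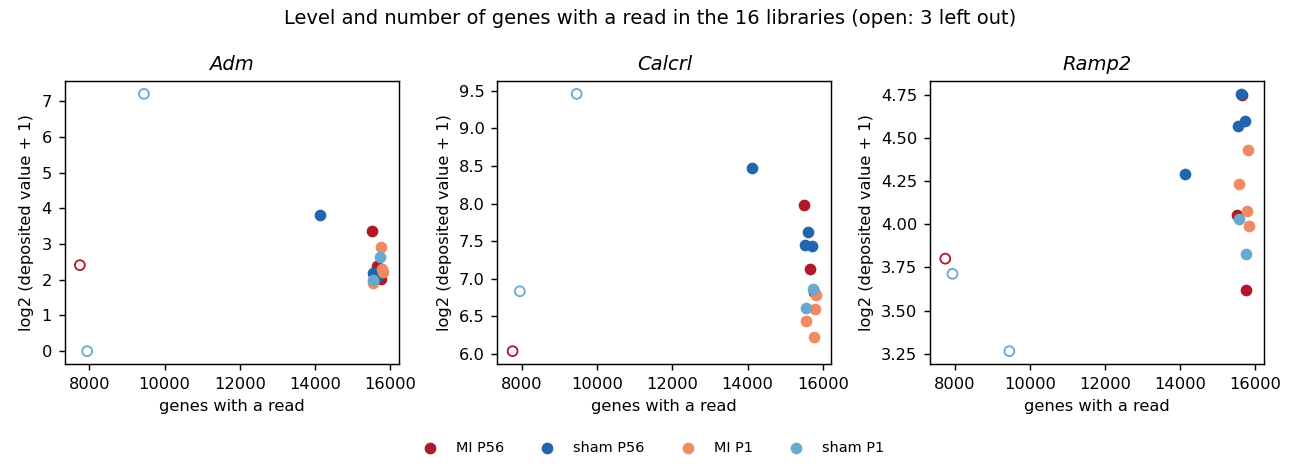
Level of Adm, Calcrl and Ramp2 as log2(deposited value + 1) against the number of genes with a read in the 16 libraries, coloured by group, with open points for the 3 libraries left out. Sham P56 library 2 (14121 genes) and sham P1 library 1 (9451 genes) stand above the other libraries for Adm and Calcrl and not for Ramp2.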

How the data were processed

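Total RNA of sorted cells was made into Ovation RNA-Seq System V2 libraries and sequenced as single reads, per the labels' protocols. The genome was mm10 (GRCm38) and the tools named were edgeR, HTSeq, STAR and Trimmomatic, per the submitters' processing notes; versions are not given in the sources used here. The deposited signal values were CPM scaled by TMM, where the design had assumed plain CPM. Dividing each library's values by its own step gave whole reads within 0.01 read for 100% of values, so reads were recovered: 17103319 to 43837520 per library. Column 5 of a group has no counterpart among the label numbers; the column name alone gave its group.

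Libraries with a read on at least 10000 genes were compared (13 of 16). Genes entered the fit if 4 or more libraries reached a value of 1, and limma-trend (limma 3.58.1, R 4.3.3) was fitted to log2(value + 1) of the 4 groups, which understates the change of low genes. A gene was called with a two-sided Benjamini-Hochberg adjusted p under 0.05 over 13033 genes. The code was tested on simulated data. Exact permutation tests exchanged labels within age or within surgery; their planned Benjamini-Hochberg adjustment over the genes was dropped after the values had been seen. Alternatives included all 16 libraries, 14 libraries, and edgeR 4.0.16 and DESeq2 1.42.0 on the recovered reads. Counts of calls are given for both tools for MI P1 over sham P1, and for DESeq2 also in the closing section. Further alternatives were other filters, pseudocounts, scalings and weights, a block for library number, and each library left out. Named genes were the 3 genes, each listed pathway gene called in a comparison, the receptor family, and for each of the 3 genes the 3 most correlated genes with a mean of at least 5. Some genes of the lists are not reported here, and counts leave them out. The genes and lists were chosen with earlier results of these data known.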

Additional observations from a re-analysis of the deposited data

Results flagged for a closer look

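In groups of 4 libraries, the highest or lowest deposited value was compared with the rest by Dixon's ratio, against its 95% critical value of 0.829. Of 42 groups looked at, 6 had such a value, and chance gives about 1 in 20. All 6 values lay in sham P56 library 2 or sham P1 library 1. The pathway genes looked at were called ones or the receptor family. The 6 values are thus not independent, and their number cannot be read against that rate. Adm had 13.1 in sham P56 library 2, against 3.13 to 3.52 in the other sham P56 libraries, while its 147 in sham P1 library 1 stood over 0 to 5.21 in the rest of that group. Calcrl stood apart in the same libraries, with 355 in sham P56 library 2 against 173 to 195 in the others, and with 703 in sham P1 library 1, the rest of that group having 96.9 to 116. Epas1 and Prkar2b were also highest in sham P56 library 2: Epas1 with 577, against 177 to 239, and Prkar2b with 4.97, against 1.07 to 1.32. Without sham P56 library 2, Calcrl in sham P56 over sham P1 was 0.76 (limma adjusted p = 0.0598), Epas1 was 1.38 (limma adjusted p = 7.6e-04) and Prkar2b was -1.89 (limma adjusted p = 7.3e-04).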

How the results depend on the processing

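With all 16 libraries, the number of genes called was 23 for MI P56 over sham P56, 1 for the difference between the responses, 518 for sham P56 over sham P1 and 14 for MI P56 over MI P1, against 446, 63, 1716 and 697 with 13; in sham the calls split into 334 higher and 184 lower at P56, against 767 and 949 with 13. The medians over all genes shifted with it, to -0.17 for MI over sham at P56, 0.39 at P1, -0.50 for the difference between the responses, and 0.36 in sham and -0.18 after MI for P56 over P1. Adm took the other sign for MI over sham at P56 (-0.0042) and P1 (-0.62) and for age in sham (-0.41), as did Calcrl for the difference between the responses (0.18), and the age difference of Calcrl in sham was 0.30 and no longer called. The exact tests gave 0.61 for the relative age difference of Calcrl, no longer under 0.05, 0.58 for that of Ramp2, now under 0.05, and, for levels, -0.31 and -0.10 for Adm by surgery and by age and 0.39 for Calcrl by age, no longer under 0.05. Crcp took the other sign for MI at P56 (-0.20), age in sham (-0.28) and age after MI (-0.11), Ackr3 for MI at P1 (0.40) and Slc2a1 for age in sham (0.19). With 14 libraries, sham P1 library 1 put back, the counts were 46, 5 and 97 for MI at P56, the difference between the responses and age after MI. Adm was then -1.61 for MI at P1 and -1.40 for age in sham, and Calcrl was 0.70 for the difference between the responses and 0.10 for age in sham, no longer called. The relative differences were -0.53 and -0.50 for Adm by surgery and by age, and 0.52 for Calcrl and 0.48 for Ramp2 by age. The level of Adm differed by -0.78 by surgery and -0.57 by age and that of Ramp2 by 0.031 by surgery, while Ackr3 for MI at P1 was 0.14, and Crcp and Ldha for age in sham were -0.94 and 0.048.

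The age call of Calcrl in sham was also lost with median-of-ratios scaling (0.98), edgeR (1.04) and a fit of the compared groups alone (1.00), and its difference after MI passed the threshold with quantile normalization (0.88) and with weights per library (0.73). Counts for MI P1 over sham P1 were 1 with a minimum value of 5, 2 with a pseudocount of 0.25, 2 with quantile normalization, 2 with plain CPM, 7 with DESeq2, 8 with the compared groups alone and 8 with weights. The difference between the responses had 34 calls with a pseudocount of 4, 25 with plain CPM, 324 with DESeq2 and 317 with weights; MI P56 over sham P56 had 866 with DESeq2, 153 with the compared groups alone and 768 with weights. Sham P56 over sham P1 had 728 and 2766, and MI P56 over MI P1 had 1136 and 1365, with the compared groups alone and with weights. Uncalled differences near 0 changed sign: Adm with a pseudocount of 4 (-0.0049, difference between the responses), quantile normalization (-0.0076, MI at P1), edgeR (-0.065 at P56, -0.078 for the difference between the responses), DESeq2 (-0.10 and -0.11 likewise) and weights (-0.12, age in sham); Ramp2 for age after MI with quantile normalization (4.3e-04), edgeR (0.027) and DESeq2 (0.016); Crcp for MI at P1 with plain CPM (0.021); and Calcrl relative to lymphatic genes by surgery (0.11). The cause of these changes was not tested.

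Over 15 pairs of libraries with the same number the correlation of deviations from group means ran from -0.32 to 0.14, and 1 pair was over 0.1. Over 47 pairs with different numbers it ran from -0.15 to 0.32, and 10 were over 0.1. Between MI P56 and sham P56 it was 0.14, 0.040 and 0.068 for the same number and -0.10 to 0.091 for different numbers. The 2 sham P1 libraries have mirrored deviations, so the check does not settle whether the numbers pair the libraries. With a replicate block on the number, the difference between the responses had 8 calls, Calcrl for age in sham was 0.87 and not called, Adm was -0.10, -0.35 and -0.14 for MI at P56, MI at P1 and age in sham, Ackr3 was 0.014 for the difference between the responses and Crcp was -0.017 for age in sham.

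With each of the 13 libraries left out in turn, the calls ran from 143 to 645 for MI at P56, 0 to 2 for MI at P1, 1 to 228 for the difference between the responses, 644 to 2270 for age in sham and 317 to 1344 for age after MI. Adm ran from -0.35 to 0.46 for MI at P56, -0.30 to 0.35 at P1, -0.37 to 0.44 for the difference between the responses, -0.19 to 0.56 for age in sham and -0.14 to 0.53 after MI. Calcrl ran from -0.54 to 0.034 for the difference between the responses, 0.76 to 1.13 for age in sham and 0.46 to 1.04 after MI, and Ramp2 from -0.35 to 0.22 for age after MI. Relative to pan-endothelial genes, Calcrl ran from -0.20 to 0.0097 by surgery, and Ramp2 from -0.014 to 0.29 by surgery and 0.18 to 0.48 by age; levels by surgery ran from -0.16 to 0.24 for Adm and -0.23 to 0.051 for Ramp2. Ackr3 ran from -0.66 to 0.0098 for MI at P56 and -0.46 to 0.21 for the difference between the responses, Crcp from -0.12 to 0.086 for MI at P1 and -0.22 to 0.23 for age in sham, and Gpr182 from -0.27 to 1.13 for MI at P1. The exact p-values are unadjusted; under the planned adjustment over the genes, the relative age difference of Calcrl kept its call with 13 libraries and lost it without sham P1 library 3. The ratio of Ramp3 to Ramp2 was not run, as Ramp3 is not analysed here, and the difference between the responses cannot be fitted on the compared groups alone.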
